A study of Mus musculus with 6 samples.

Results

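Transcripts of the heat shock proteins and their Dnaj co-chaperones were followed in mouse brain cortex with and without Fmr1. The members are all 389 transcripts, of 141196 in the deposited table, whose gene symbol begins with Hspa, Hspb, Hspd, Hspe, Hsph, Hsp9 or Dnaj. They belong to 91 of 52962 gene records. The groups were 3 Fmr1 KO samples (FMRP_KO in the titles) and 3 wild type (WT) samples, all cerebral cortex of C57BL/6 mice, with poly(A) RNA sequenced directly on a nanopore instrument. For each transcript and sample the table gives the mean poly(A) tail in nt, the number of reads behind it, and an abundance in RPM (reads scaled to a common library total). The labels give no age, sex, Fmr1 allele or treatment, nor whether each sample is a different mouse. The p-values therefore measure the spread between these samples, which may be technical.

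Heat shock proteins are chaperones that bind unfolded protein. Hsp70 proteins (Hspa genes) bind short exposed stretches in an ATP-driven cycle, Dnaj proteins deliver clients to them and stimulate their ATPase, and Hsp90 proteins act later on nearly folded clients. Small heat shock proteins (Hspb genes) hold unfolded protein without ATP. Some of these genes are driven by heat shock factor 1 when unfolded protein builds up in the cytosol, others by the unfolded protein response of the endoplasmic reticulum (ER), and many are made at all times. The members were split accordingly into 10 heat-inducible genes, 7 ER-stress-inducible genes and the remaining ones, called constitutive here. Whether some of these remaining genes are inducible as well was not tested. Several heat-inducible genes, Hsp90aa1 among them, are also made in unstressed neurons. FMRP, the product of Fmr1, is an RNA-binding protein that represses translation, and CPEB1, named with it in the title of the series, binds the 3′ end of mRNAs and controls their tails.

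The tail begins where the mRNA is cut, downstream of a signal of 6 bases. The last 30 bases of the most-read coding transcript of 6 members are given because their tail or abundance values are central below. Capitals mark AATAAA or ATTAAA, the 2 common forms of the signal, and the sequences are GENCODE mouse release 21 transcripts on GRCm38. They lie at chr9:40805171-40805200 on the plus strand for Hspa8, chr8:83612624-83612653 on the plus strand for Dnajb1, chr5:135889534-135889563 on the plus strand for Hspb1, chr5:149616544-149616573 on the minus strand for Hsph1, chr17:34969190-34969219 on the minus strand for Hspa1a and chr17:34956436-34956465 on the minus strand for Hspa1b.
Hspa8: ggaatAATAAAactatttaaattggcacca
Dnajb1: ttAATAAAatagttcctctagtctccctaa
Hspb1: AATAAAagttgcaagctactgctcaccacc
Hsph1: ttctgaagtcaatttaaaatatttgtgtca
Hspa1a: gagaaaaATTAAAgtcagagcaAATAAAaa
Hspa1b: atgacttaaatattcaaAATAAAaggttac
Of these ends, that of Hsph1 holds neither form. Of 76 protein-coding member transcripts tested for tails, 53 (69.7%) held one of the 2 forms in the last 40 bases, against 80.3% of all 14078 protein-coding transcripts tested. The letters TTTTAT or TTTTAAT, forms of the element that CPEB1 binds, stood in the last 150 bases of 19 members (25%), against 23.8% of all. Hspa1a and Hspa1b are the stress-inducible Hsp70 copies that lie side by side on chromosome 17. They matched at 99.6% of aligned coding bases but at 61.3% of aligned bases from the stop codon on. Bases facing a gap, 173 of them from the stop codon on, were left out. A direct RNA read starts at the 3′ end, so reads of these copies can differ there, but the values of each copy are uncertain where the authors' counting split them.

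Reads with an estimated tail numbered 2404074 to 3849077 per library (6 libraries), and the members took between 0.739% and 0.804% of them. Fmr1 itself was low in every knockout library, with 10.9, 11.8 and 8.22 CPM in KO, against 41.7, 45.1 and 46.4 CPM in WT (log2 -2.13 ± 0.15, edgeR adjusted p = 1.22e-10). CPM here is the count of tail reads scaled to a common, TMM-normalised library total. Of the 389 member transcripts 204 had a read with a tail estimate in at least 1 library. Only 82, from 58 gene records, reached 10 such reads in each of the 6 libraries and were tested for tail length, and they held 98.6% of the members' 155398 reads. A further 122 had reads but did not reach that minimum in every library, and 185 had none. Without reads were 15 of 16 pseudogene or copy records and the genes Dnajb7, Dnajb8, Dnajc22 and Dnajc5g. For abundance 65 gene records were tested, and 7 had too few reads, among them Hspa1l with 23 in all, Hspb2 with 48, and Hspb7, Hspb9, Dnajc5b and Dnajb13 with between 1 and 7. Since these are bulk samples, fewer cells of a type and less RNA per cell cannot be told apart. WT libraries differed in choroid plexus RNA: Ttr stood at 17.98, 22.8 and 10.3 CPM in KO, against 422, 28.4 and 821 in WT.

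Among the heat-inducible genes, Dnajb1 was higher in the knockout, and it was the only 1 of 65 tested member gene records whose abundance passed the test. Dnajb1 (ENSMUSG00000005483, chromosome 8, 83608193 to 83612653) encodes Hsp40, the Dnaj protein that works with the inducible Hsp70 proteins. Its level was 79.0, 77.6 and 78.4 CPM in KO, against 56.1, 59.3 and 49.5 in WT. The knockout samples lay close together and all above the WT samples. The log2 change was 0.51 ± 0.09 (SE), 1.43-fold (edgeR quasi-likelihood test, Benjamini-Hochberg adjusted p = 0.00207). Its main transcript Dnajb1-201 rose as well, at 65.5, 65.5 and 66.2 CPM in KO against 43.5, 49.4 and 41.2 in WT (log2 0.56 ± 0.10, edgeR adjusted p = 0.00445 over 19933 transcripts). In the authors' deposited table the log2 value of this transcript is -0.52 ± 0.15 with an unadjusted p = 0.000444. The direction of that column is not stated. Its value for the most-read Fmr1 transcript is 2.86, so there too Dnajb1 has the opposite sign to Fmr1.

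Over all genes, 129 of 12543 passed for abundance (1.03%), and the members gave 1 of 65. At an unadjusted p under 0.05 there were 16 of 65 members, against 12.9% of all genes. For transcripts, 1 of 92 members tested passed, Dnajb1-201, where 0.517% of all did. DESeq2, limma on log2(RPM + 1), reads recovered from the RPM values and every fit without 1 library also called Dnajb1, with log2 values from 0.44 to 0.58.

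Other heat-inducible genes lay higher in the knockout without passing. Hspb1 (ENSMUSG00000004951, chromosome 5, 135887919 to 135889563), the small heat shock protein Hsp27, had 30.1, 29.5 and 28.8 CPM in KO, against 23.002, 18.3 and 21.1 in WT (log2 0.50 ± 0.14, edgeR adjusted p = 0.0729). The groups did not overlap. Hspe1, the co-chaperonin that caps Hspd1 in mitochondria, had 198, 191 and 213 in KO and 179, 165 and 177 in WT (log2 0.21 ± 0.07, edgeR adjusted p = 0.176). Dnaja1, a cytosolic Hsp40, had 334, 339 and 339 in KO and 317, 289 and 293 in WT (log2 0.17 ± 0.06, edgeR adjusted p = 0.21). Both again had their groups apart. Hspa1b had 17.7, 19.4 and 12.3 in KO and 11.7, 9.01 and 14.4 in WT, with overlap (log2 0.46 ± 0.20), while its copy Hspa1a had 11.5, 9.70 and 12.6 in KO and 11.04, 10.9 and 13.4 in WT (log2 -0.05 ± 0.19). Summed over the copies, the KO samples held 29.2, 29.1 and 24.9 and the WT samples 22.7, 19.9 and 27.8, which overlap. Both copies together stayed far below the constitutive Hspa8 in every sample.

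Hsph1 and Hsp90aa1 lay on the other side. Hsph1 (ENSMUSG00000029657, chromosome 5, 149614287 to 149636376) encodes Hsp110, which swaps the nucleotide of Hsp70, and had 184, 188 and 198 CPM in KO, against 242, 193 and 208 in WT (log2 -0.17 ± 0.08, edgeR adjusted p = 0.336). Hsp90aa1, the inducible cytosolic Hsp90, had 952, 929 and 919.7 in KO, all below the 1008, 969 and 964 in WT, by a log2 of -0.07 ± 0.05 (edgeR adjusted p = 0.61). The mitochondrial chaperonin Hspd1 (log2 0.06 ± 0.07) and Dnajb4 (log2 0.11 ± 0.09) had overlapping groups. Of the 10 heat-inducible genes 7 had a higher mean in KO, 4 of them with the groups apart, and 3 a lower mean, 1 of them with the groups apart. Of all genes tested, 49.4% had a higher mean in KO, 9.12% lay entirely above WT and 8.16% entirely below.

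**Figure D1:**
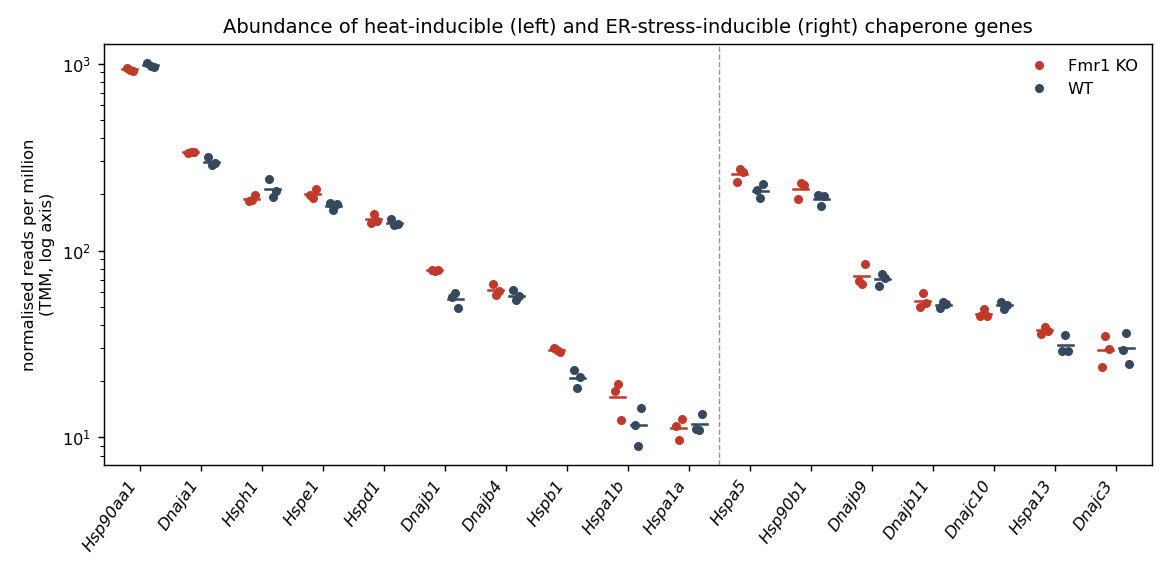
CPM (TMM-normalised tail reads, log axis) of the 10 heat-inducible genes, left of the dashed line, and the 7 ER-stress-inducible genes, right of it. Each point is 1 sample, with Fmr1 KO left of WT and a bar at the mean of 3. Dnajb1 is the gene that passed the test, with KO at 77.6 to 79.0 and WT at 49.5 to 59.3.

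The ER-stress-inducible genes had 5 higher and 2 lower means in the knockout, and none passed. Hspa5 (ENSMUSG00000026864, chromosome 2, 34771970 to 34777547), which encodes BiP, the Hsp70 of the ER lumen, came closest. It had 233, 273 and 263 CPM in KO, all above the 211, 190.3 and 227 in WT (log2 0.29 ± 0.07, edgeR adjusted p = 0.0594). Hspa5 passed without the low-count filter (edgeR adjusted p = 0.00476) and without KO replicate 1, WT replicate 1 or WT replicate 3 (0.0405, 0.0336 and 0.0199). Hspb1 passed without the filter (0.0416) and without WT replicate 1 (0.0287). Hspa13, a microsomal Hsp70 relative, had 36.0, 39.2 and 37.0 in KO and 29.1, 35.2 and 28.8 in WT, again apart (log2 0.26 ± 0.12, edgeR adjusted p = 0.349). The ER Hsp90 gene Hsp90b1 had 189, 230.3 and 225 in KO and 198, 174 and 196 in WT, which overlap (log2 0.18 ± 0.08). For the ER Dnaj genes the log2 change was 0.06 ± 0.10 for Dnajb9, 0.05 ± 0.10 for Dnajb11 and -0.05 ± 0.15 for Dnajc3. For Dnajc10, an ER disulfide reductase, it was -0.15 ± 0.10, with 44.5, 48.9 and 44.6 in KO and 52.8, 48.9 and 51.3 in WT.

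Among the constitutive genes, 30 of 48 records had a higher mean in the knockout and none passed. Hspa8 (ENSMUSG00000015656, chromosome 9, 40800984 to 40810087), which encodes Hsc70, the constitutive Hsp70 that also uncoats clathrin vesicles, was the member with most reads. Its level was 1596, 1790.2 and 1782 CPM in KO, against 1658, 1419 and 1625 in WT (log2 0.14 ± 0.06, edgeR adjusted p = 0.304), with overlap. The constitutive Hsp90 gene Hsp90ab1 had 1066, 1059 and 1048 in KO and 1076, 995 and 1077 in WT (log2 0.01 ± 0.05). These levels are reads, and each read is 1 RNA molecule, so they were not divided by length. Hspa4l, a relative of Hsph1, has 2 records whose transcripts have the same length of 9479 nt and nearly equal counts. Summed, they held 76.0, 79.3 and 80.1 in KO, all below the 107, 87.4 and 85.3 in WT, and each record had a log2 of -0.24 (edgeR adjusted p = 0.341 and 0.387). The Hsp70 nucleotide exchange factor Hspbp1 had 116, 116 and 109 in KO, all just above the 107, 93.1 and 109 in WT (log2 0.14 ± 0.08).

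Among constitutive Dnaj genes, Dnajc21, a ribosome assembly factor, had 19.7, 19.8 and 23.2 CPM in KO, against 16.6, 12.6 and 14.7 in WT (log2 0.53 ± 0.16, edgeR adjusted p = 0.128). Dnajc2, which sits on ribosomes, had 12.7, 18.1 and 16.7 in KO and 8.59, 9.28 and 12.4 in WT (log2 0.62 ± 0.20, edgeR adjusted p = 0.148). Dnajb5 had 102, 97.8 and 109.8 in KO and 87.4, 84.7 and 89.4 in WT (log2 0.25 ± 0.08, edgeR adjusted p = 0.133). In these 3 genes every KO sample lay above every WT sample, yet none passed. The synaptic Dnaj genes had log2 changes of 0.03 ± 0.07 for Dnajc5, the cysteine string protein of synaptic vesicles, and 0.06 ± 0.07 for Dnajc6 (auxilin), which recruits Hspa8 to clathrin coats. The endosomal Dnajc13 had -0.09 ± 0.14. Dnaja2 (0.07 ± 0.07), Dnajb6 (0.06 ± 0.06), Dnajc8 (-0.03 ± 0.09), Dnajc15 (-0.06 ± 0.08), Dnajc18 (0.00 ± 0.13), Dnajc7 (-0.04 ± 0.13), Dnajc27 (-0.01 ± 0.08), Hspb8 (-0.05 ± 0.17), Hspb11 (-0.10 ± 0.16) and Hspb3 (0.37 ± 0.32) had overlapping groups.

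Over all 65 records tested for abundance, 42 had a higher and 23 a lower mean in the knockout, and 12 lay entirely above and 2 entirely below WT. The shares of all genes were 9.12% and 8.16%. The members' median log2 change was 0.06, that of all genes 0.00. With limma on log2(RPM + 1), 30 of 65 were higher and 35 lower, where 39.6% of all genes were higher. The median was -0.01, beside -0.04 for all genes. That fit differs in its test, its scaling, its unit and its reads, since RPM also counts reads without a tail estimate. Reads with an estimate made up 75.2%, 74.8% and 77.3% in KO and 76.2%, 80.8% and 85.0% in WT. With edgeR on the reads recovered from RPM, 40 of 65 were higher, against 49.4% of all genes, and the median was 0.02. Whether the test, the scaling or the unit turned the median was not tested. The heat-inducible median was 0.14 with edgeR on tail reads and 0.09 with limma on log2(RPM + 1), and the constitutive one 0.03 and -0.02. There 30 and 19 of 48 constitutive genes were higher, against 49.4% and 39.6% of all genes. Among 33 other co-chaperones and regulators of the pathway, 24 had a higher and 9 a lower mean and none passed. The most read of them were Hsbp1, a binding protein of heat shock factor 1 (362 ± 13.2 in KO and 333 ± 13.04 in WT, SD, n = 3 each), and Stub1, a ubiquitin ligase of chaperone clients (186 ± 4.43 in KO and 173 ± 4.89 in WT). Of the 2 cold-inducible RNA-binding protein genes, Rbm3 rose, with 177, 154 and 159 in KO against 117, 105 and 123 in WT (log2 0.51 ± 0.08, edgeR adjusted p = 0.000456). The other, Cirbp, leaned lower in KO and did not pass. No gene passed in the astrocyte (8 tested), oligodendrocyte (9), microglia (7), vascular (8) and blood (5) marker lists. Of 9 neuron markers 1, Nrgn, was higher in KO (log2 0.20 ± 0.05, edgeR adjusted p = 0.035). The summed neuron markers ranged from 8879 to 9241 in KO and from 8116 to 8608 in WT. The summed astrocyte markers ranged from 4643 to 4959 in KO and from 4471 to 4743 in WT, led by Cst3 (mean 2727 in KO and 2546 in WT). Gene by gene, means were higher in KO for 6 of 9 neuron, 3 of 8 astrocyte and 1 of 9 oligodendrocyte markers. Those for microglia, vessels and blood were higher for 6 of 7, 3 of 8 and 0 of 5. Of 11 early response gene records 8 had a lower mean in KO and 1 passed, Npas4 (log2 -0.97 ± 0.20, edgeR adjusted p = 0.0103), and of 3 choroid plexus genes Ttr passed (log2 -4.69 ± 0.64, edgeR adjusted p = 6.45e-05). Their part in the chaperone values was not tested.

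**Figure D2:**
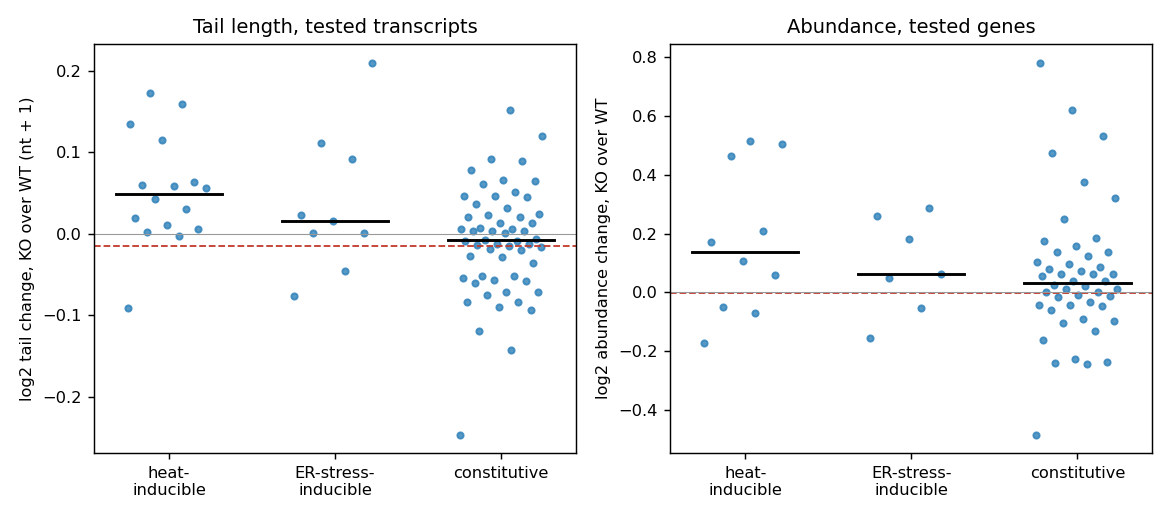
Log2 change, KO over WT, in tail length of the 82 tested member transcripts (left) and in abundance of the 65 tested member gene records (right), by class. Each point is 1 transcript or gene, the black bar is the class median, and the dashed red line is the median of all transcripts or genes tested. The heat-inducible medians are the highest of the 3 classes on both axes, 0.05 for tails and 0.14 for abundance.

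For tail length no member passed. limma called 0 of 82 members and 0 of all 16168 transcripts (0%), and 6 members had an unadjusted p under 0.05, where 5.84% of all transcripts did. With a variance trend on read number or with weights from read number, limma called 1 member, Hspa8-201 (adjusted p = 0.0214 and 0.000309). Over all 16168 transcripts those fits called 11 and 22. Of the 82, 48 had a longer and 34 a shorter mean tail in the knockout, against 41.2% longer over all transcripts. When each sample was centred by its median, 60 of 82 were longer, against 52.7% of all. The longer majority was lost in other fits: 37 of 83 were longer without WT replicate 1 (34.7% of all), 39 of 82 without KO replicate 3 (36.9% of all), and 30 of 60 genes with the mean tail per gene (38.3% of all). There were 8 members with all KO samples longer than all WT samples and 2 all shorter, where 3.41% and 7.53% of all transcripts did. The median log2 change was 0.00459 for the members and -0.01 for all.

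By class, most heat-inducible transcripts had a longer mean tail in the knockout, none past the test, and the constitutive ones were split. Of 16 heat-inducible transcripts 14 had a longer mean tail in KO (median log2 0.05), of 9 ER-stress-inducible ones 7 (median 0.02), and of 57 constitutive ones 27 (median -0.01). Without WT replicate 1, which had the shortest heat-inducible tails, the counts were 10 of 16, 4 of 9 and 23 of 58, where the share of all transcripts with a longer mean was 34.7%, against 41.2% with all libraries. Without KO replicate 3, which had the longest, they were 12 of 16, 4 of 9 and 23 of 57, where 36.9% of all were longer. With the mean tail per gene they were 9 of 10, 4 of 7 and 17 of 43, where 38.3% of all genes were longer. Centred by the sample median they were 15 of 16, 7 of 9 and 38 of 57, where 52.7% of all were longer. The constitutive share thus went from 47.4% to 66.7% with centring, while that of all transcripts rose as well. In both fits the constitutive share lay above that of all. Taken as the median over the most-read transcripts of the 10 heat-inducible genes, the tail was 130.2, 128 and 133 nt in KO and 127, 127 and 130.2 nt in WT, which overlap. The split into classes was made with earlier tail results of these data known, so its direction is no separate evidence.

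Hspa8 had the best-covered tails. Hspa8-201 rested on 25504 reads and had 115, 111 and 115 nt in KO, against 105, 105 and 110.0 nt in WT, with no overlap. Its log2 change was 0.09 ± 0.04, about 7.03 nt (limma adjusted p = 0.843). A second coding transcript with the same 3′ end, Hspa8-202, had 103, 105 and 107 nt in KO and 98.0, 97.2 and 101 nt in WT (log2 0.09 ± 0.04, limma adjusted p = 0.84). Another transcript, Hspa8-208, which keeps an intron and ends 1 base away, ran the other way on 253 reads, with 100.4, 102 and 113 nt in KO and 128, 125 and 121 nt in WT. Its log2 change of -0.25 ± 0.06 was the largest decrease among the members and had their smallest p (limma unadjusted p = 0.00313, adjusted p = 0.704). Against Hspa8-201 in the same library it differed by -14.7, -8.47 and -2.11 nt in KO and by 23.1, 20.498 and 11.1 nt in WT. The difference between the genotypes has an exact permutation p of 0.1, the smallest that 3 against 3 samples allow (two-sided, 0.8 after adjustment over 24 transcript comparisons).

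Among the heat-inducible genes, both transcripts of Hsph1 had longer mean tails in the knockout. Hsph1-211 had 131, 130.2 and 135 nt in KO, against 119, 119 and 128 nt in WT (log2 0.12 ± 0.05, limma adjusted p = 0.843), and its second transcript Hsph1-201 had 134, 131 and 134 nt in KO and 124, 129 and 129.7 nt in WT. Both had the KO samples entirely above WT, while Hsph1 abundance was lower in KO on average. Hspb1 had 110.2, 103 and 93.7 nt in KO, against 94.8, 90.5 and 88.5 nt in WT (log2 0.16 ± 0.06, limma adjusted p = 0.837), and its lowest KO sample lay below its highest WT sample. Hspa1b had 148, 128 and 133 nt in KO, all above the 127, 125 and 121 nt in WT, on 275 reads (log2 0.13 ± 0.06). Hspe1 had 122, 120.4 and 119 nt in KO and 113, 119 and 116 nt in WT, just apart (log2 0.06 ± 0.04).

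Dnajb1, the member whose abundance rose, had overlapping tails in the genotypes. Dnajb1-201 had 136, 135 and 129.6 nt in KO, against 128, 136 and 136 nt in WT (log2 0.00 ± 0.05), and the less-read Dnajb1-202 had 127 ± 5.91 nt in KO and 135 ± 12.8 nt in WT (SD, n = 3 each). Hsp90aa1-202 had 129, 129 and 129 nt in KO and 127, 128 and 131 nt in WT on 11691 reads. Hspd1 had 128 ± 5.35 nt in KO and 128 ± 2.02 nt in WT, Dnaja1-201 136 ± 6.74 nt in KO and 130.2 ± 0.547 nt in WT, Dnajb4-202 142 ± 3.24 nt in KO and 140.3 ± 6.23 nt in WT and Hspa1a 122 ± 16.2 nt in KO and 118 ± 18.3 nt in WT. Dnajb4-204, on 396 reads, had 152, 159.9 and 166 nt in KO and 158, 141 and 126 nt in WT (log2 0.17 ± 0.09), with overlap.

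**Figure D3:**
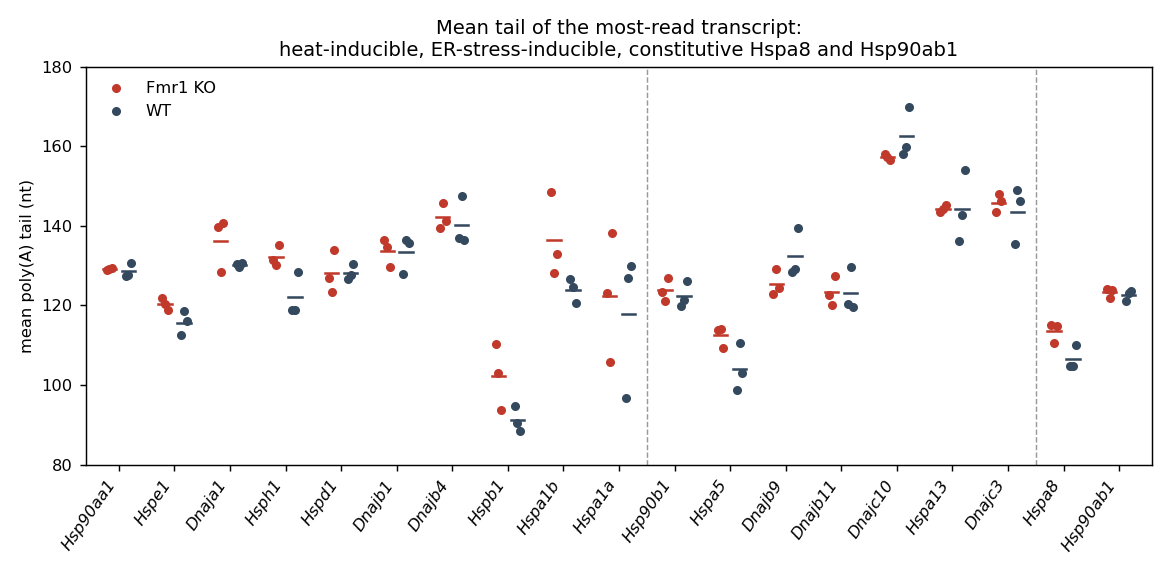
Mean poly(A) tail in nt (axis from 80 to 180) of the most-read transcript of the 10 heat-inducible genes, the 7 ER-stress-inducible genes and, at the right, the constitutive Hspa8 and Hsp90ab1. Each point is 1 sample, with Fmr1 KO left of WT and a bar at the mean of 3. The KO samples of Hsph1 (130.2 to 135 nt) and Hspa8 (111 to 115 nt) lie above all WT samples, and those of Dnajb1 and Hsp90aa1 overlap WT.

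Among the ER-stress-inducible genes, both coding transcripts of Hspa5 had a longer mean tail in the knockout. Hspa5-201 had 114, 114 and 109 nt in KO, against 98.8, 111 and 103 nt in WT (log2 0.11 ± 0.05), and Hspa5-202 had 121, 112 and 114 nt in KO, all above the 109, 109 and 107 nt in WT (log2 0.09 ± 0.04). The coding transcript Hsp90b1-201 had overlapping groups (124 ± 2.84 nt in KO and 122 ± 3.30 nt in WT). Its intron-keeping transcript Hsp90b1-202, on 186 reads, had 135, 160.2 and 158 nt in KO against 126, 134 and 131 nt in WT. That log2 change of 0.21 ± 0.07 was the largest increase among the members (limma adjusted p = 0.806). Dnajb9 leaned the other way, with 123, 129 and 124 nt in KO and 128, 129 and 139.6 nt in WT (log2 -0.08 ± 0.05), as did Dnajc10 with 158, 157 and 157 nt in KO and 158, 159.8 and 169.9 nt in WT. Dnajb11 (123 ± 3.69 nt in KO and 123 ± 5.51 nt in WT), Hspa13 (144 ± 0.881 nt in KO and 144 ± 9.05 nt in WT) and Dnajc3 (146 ± 2.27 nt in KO and 144 ± 7.10 nt in WT) also overlapped.

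Among the other constitutive genes, Dnajc27, a small GTPase with a J domain, had 131, 133 and 132 nt in KO, all below the 142, 143 and 146 nt in WT, on 1451 reads (log2 -0.12 ± 0.04, limma unadjusted p = 0.0238, adjusted p = 0.801). Its abundance had a log2 change of -0.01 ± 0.08. Dnajc2 had 102, 130.2 and 118 nt in KO and 107, 105 and 102 nt in WT (log2 0.15 ± 0.09), with overlap. Lower means on few reads were found for Dnajc7-203 (118 reads, log2 -0.14 ± 0.21) and Hspb3 (82 reads, log2 -0.09 ± 0.10). Precision followed depth, since the median SD over 3 samples was 3.42 nt in KO and 3.02 nt in WT for the 31 member transcripts with 1000 or more reads, and 7.48 nt in KO and 6.70 nt in WT for the 51 with fewer.

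The level of the tail differed far more between chaperone genes than between genotypes. Over the most-read transcripts of the 58 gene records the mean over 6 samples ran from 96.8 to 194 nt, with a median of 133 nt, against 143 nt over all 10651 genes tested. The shortest tails were those of Hspb1 (102 ± 8.29 nt in KO and 91.3 ± 3.22 nt in WT), Hspb8 (107 ± 4.21 nt in KO and 102 ± 3.37 nt in WT), Hspa5 (112 ± 2.71 nt in KO and 104 ± 5.94 nt in WT) and Hspa8 (114 ± 2.48 nt in KO and 107 ± 2.99 nt in WT). In KO these neighbours overlap in their samples, and in WT all Hspb1 samples lay below all Hspb8 samples. The longest tail was that of Dnajc13, an endosomal Dnaj protein, with 196 ± 6.55 nt in KO and 192 ± 4.47 nt in WT. In KO all its samples lay above those of Dnajb5 (165 ± 3.39 nt in KO and 176 ± 19.6 nt in WT), Dnajc18 (157 ± 8.25 nt in KO and 164 ± 9.66 nt in WT) and Dnajc10 (157 ± 0.707 nt in KO and 163 ± 6.43 nt in WT). In WT it overlapped with Dnajb5. Constitutive Hspa8 and inducible Hspb1 stood together at the short end, so the order did not follow inducibility gene by gene. By library, the median of the 41 constitutive records was 137, 138 and 139 nt in KO and 138, 142 and 139.6 nt in WT, above the heat-inducible median of the same library in all 6. Longer transcripts had longer tails, with a Spearman rho of 0.59 across the 58 records, close to 0.57 across all genes, and rho with read number was -0.08 against -0.34. These values are across genes of the same libraries and carry no test.

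**Figure D4:**
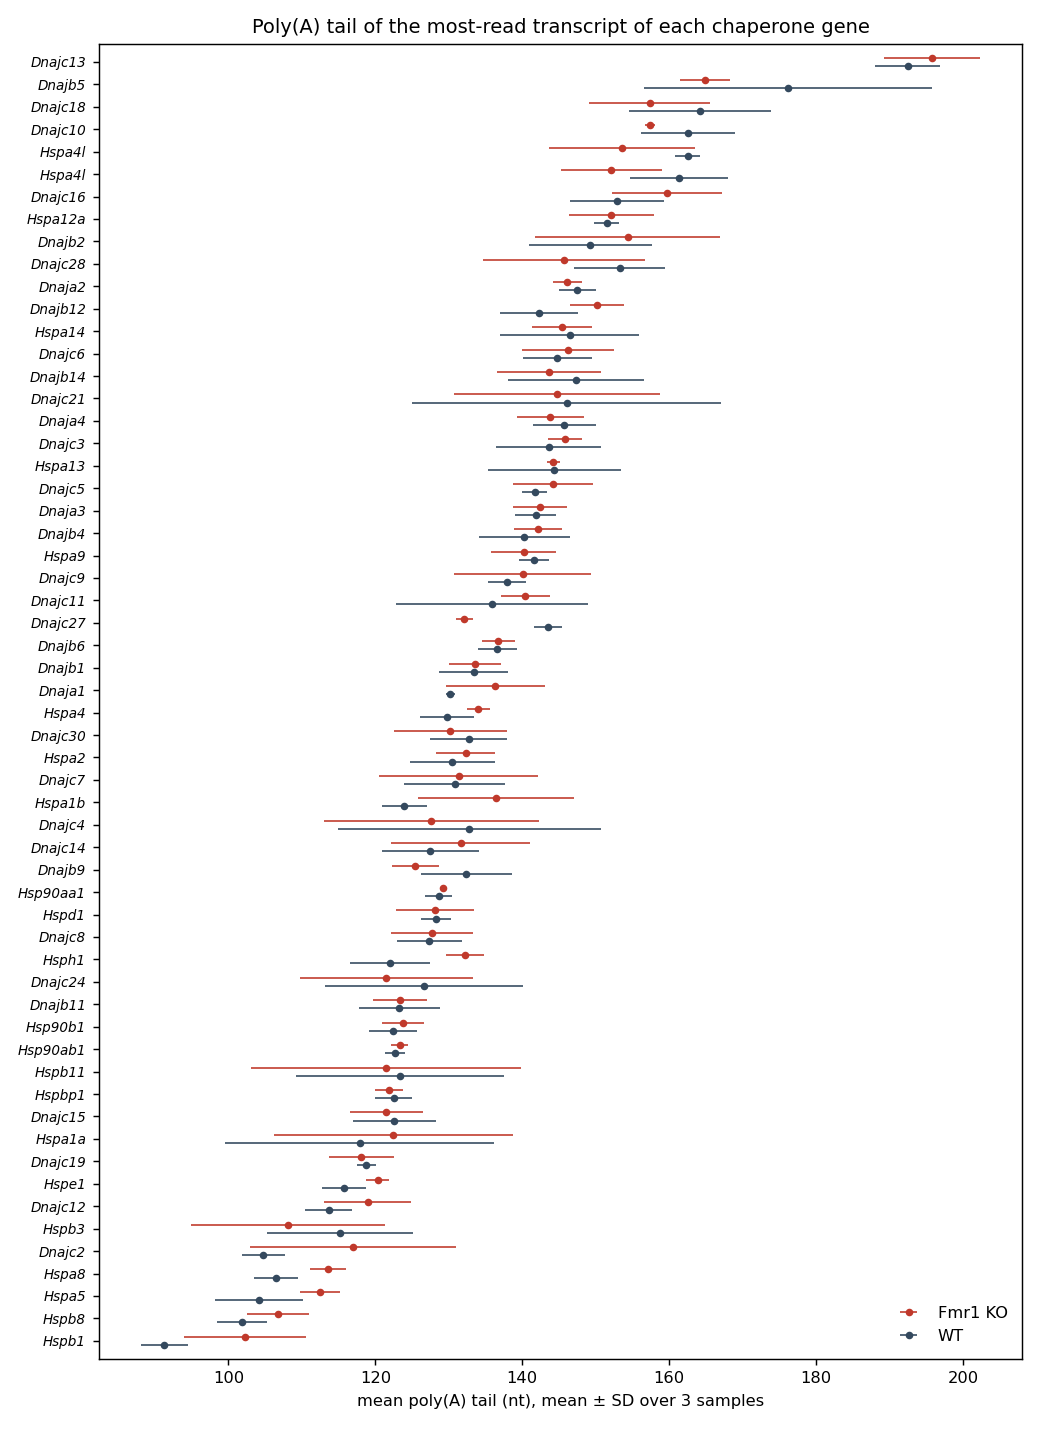
Mean poly(A) tail in nt of the most-read transcript of each of the 58 member gene records, ordered by the mean over all 6 samples. Points are means and bars SDs over 3 samples, with Fmr1 KO drawn above WT in each row. Tails run from Hspb1 (96.8 nt over 6 samples) to Dnajc13 (194 nt).

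Transcripts of 1 gene could also differ in tail. In 17 genes with several tested transcripts, 24 transcripts were set against the most-read one of their gene within each library. In 7 of the 24 the difference had the same sign in all 6 libraries, 3 longer and 4 shorter. An exact sign-flip permutation test over 6 libraries (two-sided) cannot go below p = 0.0312, which these reached, and no comparison passed after adjustment over the 24 (smallest adjusted p = 0.107). Hspa8-202 differed from Hspa8-201 by -8.21 ± 2.12 nt (SD over 6 libraries) although both end at the same base. Dnajb2 encodes a neuronal Dnaj protein that binds ubiquitin. Its transcripts Dnajb2-208 and Dnajb2-207 differed from Dnajb2-210 by -26.6 ± 6.46 nt and -19.9 ± 6.68 nt, with ends at most 4 bases from that of Dnajb2-210. Dnajc6-203 was longer than Dnajc6-201 by 16.9 ± 4.48 nt with ends 1 base apart. Intron-keeping transcripts were longer in Hsp90b1 (Hsp90b1-202, by 17.7 ± 14.1 nt) and Dnajb5 (Dnajb5-206, by 15.1 ± 10.3 nt), where the annotated ends lie 631 and 693 bases apart. The remaining one, Dnajc7-203, differed by -21.03 ± 21.4 nt. Reads that cover only the shared 3′ part can be given to either transcript, which bears on each of these values.

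**Figure D5:**
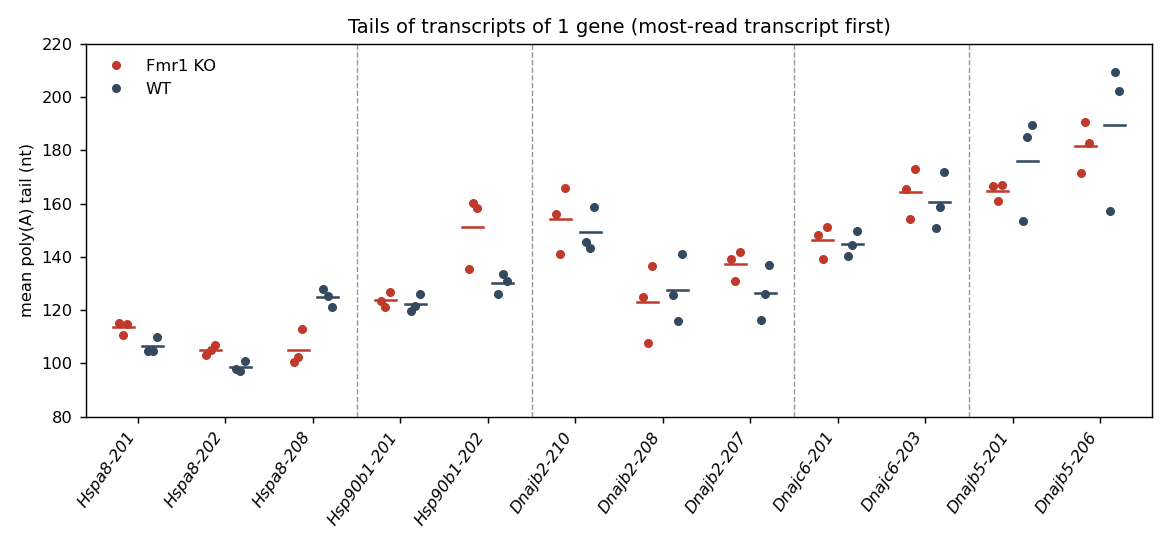
Mean poly(A) tail in nt (axis from 80 to 220) of transcripts of Hspa8, Hsp90b1, Dnajb2, Dnajc6 and Dnajb5, the most-read transcript of each gene first. Each point is 1 sample, with Fmr1 KO left of WT and a bar at the mean of 3. The samples of Hspa8-201 lie at 111 to 115 nt in KO and 105 to 110.0 nt in WT, and those of the intron-keeping Hspa8-208 at 100.4 to 113 nt in KO and 121 to 128 nt in WT, and neither passed the test.

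Promoters were searched for the letters that heat shock factor 1 binds. These are repeats of GAA in alternating orientation. The letters GAA, any 2 bases and TTC, or TTC, any 2 bases and GAA, were searched from 250 bases before to 50 after the gene start in the RefSeq promoters on GRCm38.p6. Each form is its own reverse complement, so both strands were covered, and matches may overlap. There 60 member genes were found. Of 9 heat-inducible genes with a promoter there 8 held a match, against 8 of 51 other members and 16.97% of all 27025 genes. By window it was 9 of 15, against 9 of 62 for the other members and 15.1% of all windows. The class was chosen as driven by heat shock factor 1, so the count is no separate evidence. Nor are its genes all separate, since the Hspa1a and Hspa1b windows differ at 4 of 300 bases. Hspd1 and Hspe1 overlap at their starts on opposite strands of chromosome 1. Hspe1 and Hsph1 are shown because each holds 3 overlapping or separate matches, in capitals, while their mean abundance lay on opposite sides of WT in the knockout, neither past the test. The Hspe1 window is chr1:55087898-55088197 on the plus strand and the Hsph1 window chr5:149636266-149636565 on the minus strand.
Hspe1: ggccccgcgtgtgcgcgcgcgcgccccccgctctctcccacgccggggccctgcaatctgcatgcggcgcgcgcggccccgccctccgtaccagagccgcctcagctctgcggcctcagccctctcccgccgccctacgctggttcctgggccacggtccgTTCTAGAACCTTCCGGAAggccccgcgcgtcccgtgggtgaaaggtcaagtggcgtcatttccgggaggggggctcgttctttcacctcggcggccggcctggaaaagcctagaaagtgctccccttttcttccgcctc
Hsph1: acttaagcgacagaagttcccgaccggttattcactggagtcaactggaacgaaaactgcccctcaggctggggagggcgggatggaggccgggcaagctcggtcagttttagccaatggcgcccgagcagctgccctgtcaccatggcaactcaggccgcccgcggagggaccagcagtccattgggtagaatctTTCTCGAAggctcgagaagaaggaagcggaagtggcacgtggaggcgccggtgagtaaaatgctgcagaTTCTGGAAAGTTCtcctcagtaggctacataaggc
The heat-inducible gene without a match in its windows was Dnajb1, the one that rose in the knockout. A match is a run of letters and not a measured binding site, and a window without one says nothing of the factor.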

How the data were processed

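Poly(A) RNA of 3 Fmr1 KO and 3 WT cortex samples was sequenced directly on a PromethION, per the labels. Per the file headers, the authors deposited a mean tail in nt, the count of reads behind it and an abundance in RPM for each transcript and sample. They also deposited a comparison table of their own, with a log2 fold change, standard error and p-value, per the file headers. How tails were estimated is not stated in any source used. Among tools, minimap2 2.17, DESeq2, Salmon 1.5.2 and SAMtools 1.9 are listed with the build mm10 and no roles, per the submitters' processing notes. Tails times counts were whole within 0.01 for 100% of values with at least 3 tail reads. RPM gave whole reads for 99.9% of values in WT replicate 1 and 100% elsewhere. On those reads, edgeR called 101 of 12808 genes.

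Tails were compared as log2(nt + 1) with limma 3.58.1 (variance trend on level) for transcripts with at least 10 tail reads in all 6 samples. Counts were summed per gene and tested with edgeR 4.0.16 (TMM, filterByExpr, quasi-likelihood), and the levels printed are TMM-normalised CPM. p-values were adjusted by Benjamini-Hochberg over all features, with a threshold of 0.05, and both fits were tested on simulated data. The simulated tail changes were larger than that of any member, so whether changes as small as theirs would be called was not tested. Changes are log2 KO over WT ± SE. Identifiers and positions came from GENCODE mouse release 21 (GRCm38), which held 97.6% of the deposited IDs and 379 of the 389 members, and may not be the release the authors used. Named members are those past a threshold, all inducible ones, the most read overall and per class, and those with the longest and shortest tails. Also named are those with the largest tail changes and the smallest p-values for tail or abundance, but not the largest abundance changes as such. Hspa4l, Dnajc5 and Dnajb2 were added after their values were seen. The members, classes and lists were chosen with earlier results of these data known. A member record with few reads is not reported here.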

Additional observations from a re-analysis of the deposited data

How the results depend on the processing

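The count of member tail calls, 0, was 1 with a variance trend on reads and 1 with weights from reads (Hspa8-201 both times), and 0 without any single library. Member abundance calls, 1, were 3 without the low-count filter and ranged from 1 to 3 without single libraries. Calls over all genes moved as well, from 57 to 206 without single libraries. The fit with 3 member calls, without WT replicate 1, was the one with 206. Member transcript abundance calls, 1, were 2 without the filter and 2 with the replicate number as a block (Dnajb5-201 added in both), and ranged from 1 to 2 without single libraries (Hspa5-201 added without WT replicate 3). Calls over all transcripts were 103, against 180 without the filter, 171 with the block and 44 to 163 without single libraries. The members' median tail change, 0.00459, was 0.0239 when centred by sample median and ranged from -0.00884 to 0.0160 without single libraries. Their median abundance change, 0.0554, was -0.00965 with limma on log2(RPM + 1), where that of all genes was -0.0429. It ranged from 0.0337 to 0.0791 without single libraries. Dnajb1 was called in all 13 abundance fits, the one on recovered reads having been added after seeing the data. Over all features, tail calls were 0, against 11 with the trend on reads and 22 with weights, and gene calls 129, against 62 with DESeq2, 40 with limma on RPM and 249 without the filter. Of 682 alternative tail values of 53 named transcripts, 74 changed sign without being called, and 2 were newly called. For abundance, 46 of 420 changed sign without a call, and 6 were newly called. Replicate numbers did not pair the samples: correlations of same-numbered samples were 0.02, 0.00 and 0.01 for tails and 0.03, -0.07 and 0.05 for abundance. With the block, 1 member gene and 0 member tails were called, against 92 genes and 0 tails over all features. Depth limits the 122 member transcripts with reads that did not reach 10 in each of the 6 libraries, which were not tested for tails. The cause of each dependence was not tested.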
